A study of Mus musculus with 16 samples.

Results

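The snoRNA host genes are long non-coding RNA genes whose introns contain small nucleolar RNAs. They were chosen by name as Gas5, Snhg1, Snhg3, Snhg5, Snhg6, Snhg8, Snhg12, Snhg15 and Snhg17, which are 9 of the 52636 gene models counted. All 9 were found by their Ensembl identifiers, and 8 had enough counts to be tested. RNA came from 16 cultures of CRAFR26, mouse embryonic stem cells that carry an inducible c-RAF kinase construct through which 4-hydroxytamoxifen (4OHT) switches on the MEK and ERK kinases. All cells, the 0h group included, had been held for 48 h in the FGF receptor inhibitor PD17 (250 nM) instead of the MEK inhibitor of their routine medium. The groups were 0h (no 4OHT), 2h and 4h (2 h or 4 h in 250 nM 4OHT) and rev (4 h of induction, then a further 2 h with a MEK inhibitor). Each group had 4 libraries, from 2 cultures of clone 4 and 2 of clone 8. Both clones carry the construct, no culture received the 4OHT vehicle alone, and none was held for 6 h without the MEK inhibitor. Effects of 4OHT itself cannot be told apart from those of ERK, nor the inhibitor in rev from 2 h more in culture.

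A snoRNA host transcript is spliced, and its introns are trimmed to snoRNAs that guide the chemical modification of ribosomal RNA. Box C/D snoRNAs guide methylation of the ribose and box H/ACA snoRNAs guide pseudouridylation. Many host transcripts start with a run of pyrimidines, the 5′ terminal oligopyrimidine tract shared with ribosomal protein mRNAs. Their spliced exons carry only short reading frames and are often removed by nonsense-mediated decay, so the level of a spliced host RNA depends on its translation as well as on its synthesis. Gas5 takes its name from its accumulation in growth-arrested cells.

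In the GENCODE M21 annotation (GRCm38), Gas5 (ENSMUSG00000053332) spans 161034422 to 161038539 on the plus strand of chromosome 1 and contains 10 snoRNA models. Snhg1 (ENSMUSG00000108414; chromosome 19, 8723475 to 8726443, plus strand) contains 8, and Snhg12 (ENSMUSG00000086290; chromosome 4, 132308623 to 132311024, plus strand) contains 5. Snhg5 (ENSMUSG00000097195; chromosome 9, 88521050 to 88522929, minus strand) contains 2 models, Snord50a and Snord50b. Snhg17 (ENSMUSG00000085385; chromosome 2, 158353700 to 158361580, minus strand) contains 3. Snhg6 (ENSMUSG00000098234; chromosome 1, 9941959 to 9944118, minus strand), Snhg8 (ENSMUSG00000104960; chromosome 3, 123507552 to 123508404, minus strand) and Snhg15 (ENSMUSG00000085156; chromosome 11, 6525591 to 6528760, minus strand) contain 1 each: Snord87, Snora24 and Snora9. Snhg3 (ENSMUSG00000085241; chromosome 4, 132348014 to 132353686, minus strand) contains Snora73a and Snora73b. The annotated exons, summed over all transcripts, cover 100% of the span of Snhg1, Snhg8 and Snhg12, 92.0% of Snhg5, 91.3% of Gas5 and 89.5% of Snhg17. They cover 53.1% of Snhg6, 42.9% of Snhg15 and 17.4% of Snhg3. Of the 25 Gas5 transcripts, 20 are annotated as retained introns. For most of the hosts a count therefore does not separate spliced from unspliced RNA.

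The sequences around the transcription starts are shown because a start with pyrimidines is the feature that the hosts are known for. RefSeq promoters (GRCm38.p6) were matched for 8 of the 9 hosts and not for Snhg6. Each line gives 100 bases, 60 before the annotated start and 40 from it. Capitals mark TATA where it lies 45 to 16 bases before the start. They also mark the longest run of C and T that overlaps the 10 bases on either side of the start. For Gas5 the second of its 2 annotated starts is printed, chosen after both were seen.
Gas5, chr1:161035106-161035205, plus strand: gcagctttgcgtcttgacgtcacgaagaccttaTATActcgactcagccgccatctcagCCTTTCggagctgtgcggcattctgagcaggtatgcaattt
Snhg1, chr19:8723427-8723526, plus strand: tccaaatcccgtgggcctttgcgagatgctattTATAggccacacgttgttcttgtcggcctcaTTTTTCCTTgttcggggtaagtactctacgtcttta
Snhg5, chr9:88522858-88522957, minus strand: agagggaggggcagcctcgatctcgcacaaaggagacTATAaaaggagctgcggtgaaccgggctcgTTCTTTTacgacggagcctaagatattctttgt
Snhg12, chr4:132308618-132308717, plus strand: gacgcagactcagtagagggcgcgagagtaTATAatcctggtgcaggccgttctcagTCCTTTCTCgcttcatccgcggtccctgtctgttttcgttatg
Snhg8, chr3:123508297-123508396, minus strand: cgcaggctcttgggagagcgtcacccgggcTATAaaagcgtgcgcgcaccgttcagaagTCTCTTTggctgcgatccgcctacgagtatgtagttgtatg
Snhg15, chr11:6528721-6528820, minus strand: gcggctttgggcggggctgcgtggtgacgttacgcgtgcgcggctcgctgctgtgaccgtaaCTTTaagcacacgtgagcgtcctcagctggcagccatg

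TATA at that position, read on the gene's strand, was present in Gas5, Snhg1, Snhg5, Snhg8 and Snhg12, against 6.72% of all 32851 RefSeq promoters. It was not found at those positions in Snhg3, Snhg15, Snhg17 or the first Gas5 start. The pyrimidine run was 9 bases long in Snhg1 and Snhg12, a length reached by 9.55% of all promoters. It was 7 bases in Snhg5 and Snhg8 (19.7% of all promoters had at least that), 6 in the printed Gas5 start (29.2%) and 4 in Snhg15, where the median of all promoters was 4. The first Gas5 start had a run of 3, reached by 82.9% of all promoters, the starts of Snhg17 had 3 and 6, and Snhg3 had 5. Counted from the annotated start as base 1, the printed run began at base 5 in Snhg1, 8 in Snhg5 and 3 in Snhg15. It began 3 bases before the start in Snhg12, and 1 base before it in Snhg8 and Gas5. The letters TGACGTCA (a cyclic AMP response element; either strand, 300-base window) occurred at the second Gas5 start and in Snhg15, against 1.79% of all promoters. CACGTG (E-box) occurred in Snhg15 (7.15% of all promoters) and CCGGAAG (ETS-type) in Snhg3 (8.86%). The AP-1 letters TGANTCA, carried by 7.81% of all promoters, were not in these windows. These matches describe letters only.

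Total counts ran from 2172651 to 12680303 per library (median 6502783), of which the 8 most abundant gene models took 42.0% to 80.4%. Levels are CPM (counts scaled to a fixed library total) on library sizes scaled by TMM, a factor for composition, and 3 counts correspond to 0.213 to 1.35 CPM. As a check of the labels, the ERK feedback gene Dusp6 averaged 1.25 ± 0.448 CPM without 4OHT, 55.2 ± 10.7 after 4 h of it and 1.59 ± 0.667 after the inhibitor (SD, n = 4). Spry4, also chosen for this check, averaged 0.998 ± 0.557, 245 ± 32.3 and 3.12 ± 1.20 CPM. It was called higher in rev than at 0h (log2 fold change 1.69). All 8 embryonic stem cell markers were tested, with a summed level of 1635 to 2312 CPM. Single markers moved within that sum. Nanog (log2 fold change -0.68 from 0h to 4h and 0.66 from 4h to rev), Klf4 (-0.35 and 0.51) and Tfcp2l1 (-0.31 and 0.33) were lower at 4h and higher again in rev. Sox2 (0.38 and -0.32), Zfp42 (0.40 and -0.44) and Pou5f1 (0.26 and -0.35) went the other way, all called by edgeR. Esrrb was called higher at 4h (0.23) and not called from 4h to rev, and Dppa5a was not called at 4h and was lower in rev than at 4h (-0.46). Primitive endoderm markers summed to 3.26 to 6.76 CPM (1 of 5 tested, Gata6 at 0 to 4 counts), trophectoderm markers to 29.8 to 52.2 (3 of 4 tested, Elf5 at 0 to 5 counts) and fibroblast markers to 1.87 to 7.66 (2 of 5 tested, Dcn at 0 in every library). Markers of the primed epiblast (3 of 4 tested, Fgf5 at 0 to 3 counts) summed to 6.20 to 9.85 CPM in the 0h libraries, 14.2 to 30.8 in the 4h libraries and 9.01 to 11.3 in rev. That sum was carried by T (log2 fold change 2.54 at 4h) and Pou3f1 (1.49), while Otx2 averaged 2.80 CPM at 0h, 2.22 at 4h and 1.73 in rev. The trophectoderm markers were also called at 4h, Cdx2 (1.95) and Eomes (0.98) higher and Tfap2c (-0.73) lower. In rev, Cdx2 (1.66), Pou3f1 (0.74), Esrrb (0.23) and the fibroblast marker Col1a1 (1.93, from 0.519 to 1.98 CPM) were called higher than at 0h, and Tfap2c (-0.29), Otx2 (-0.83) and Dppa5a (-0.70) lower. The part of these marker changes in the host results was not tested. In bulk RNA, fewer expressing cells and less RNA per cell cannot be told apart.

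Gas5 was the most abundant of the hosts per length. Divided by the exon bases that no other model shares, its level was 27.8 ± 5.21 CPM per kilobase over all 16 libraries (mean ± SD). Snhg1 (19.0 ± 2.84) and Snhg5 (19.0 ± 4.32 CPM per kilobase) followed and did not differ beyond their spread. Snhg6 stood at 12.3 ± 2.46 CPM per kilobase, with Snhg8 (9.23 ± 2.43), Snhg12 (8.92 ± 1.46) and Snhg15 (7.79 ± 1.73) within each other's spread below it. Snhg17 was lowest of the tested hosts at 4.80 ± 0.698 CPM per kilobase, on 6675 unshared exon bases. Before that division it averaged 32.0 ± 4.66 CPM, between Snhg1 (44.7 ± 6.67) and Snhg5 (30.2 ± 6.85). The annotated exons cover unequal parts of the genes, so the order per kilobase depends on the annotation. Snhg3 had 1 count in 1 library, 0h clone 8 replicate 2, and 0 in the other 15.

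**Figure D1:**
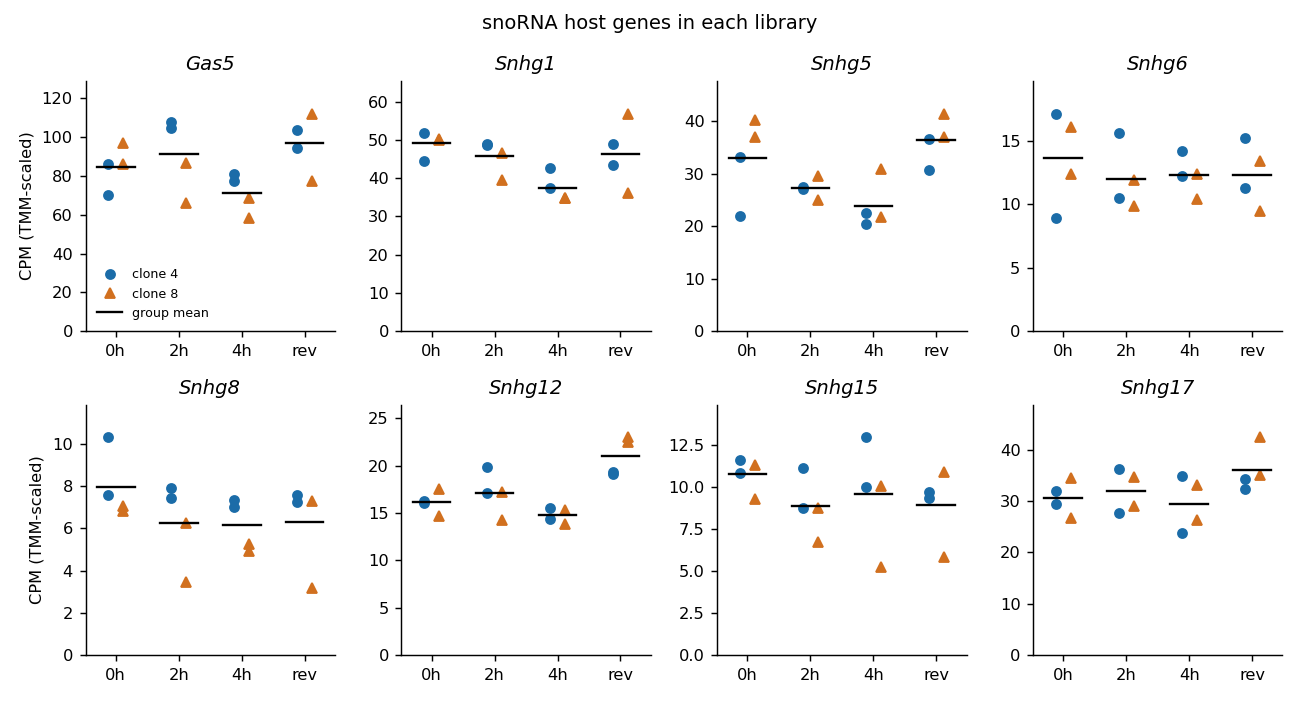
TMM-scaled CPM (vertical axes from 0) of the 8 tested host genes in the 4 groups (horizontal axes). Each point is 1 library, circles for clone 4 and triangles for clone 8, and bars are group means of 4 libraries. Snhg1 at 4h lies wholly under 0h, and Snhg12 in rev lies wholly above 0h and 4h.

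The first question was how the hosts responded to ERK induction. Snhg1 and Snhg5 were lower after 4 h, Snhg5 was already lower after 2 h, and no host was called higher. In CPM, with the libraries in the order clone 4 replicates 1 and 2, then clone 8 replicates 1 and 2, Snhg1 was at 44.5, 51.8, 49.8 and 50.2 at 0h. The 2h libraries were at 48.8, 48.6, 46.5 and 39.6 CPM, and the 4h libraries at 37.3, 42.5, 34.7 and 34.7. The highest 4h library lay below the lowest 0h library, while 2h overlapped both. The log2 fold change from 0h to 4h was -0.40 (standard error, SE, 0.10; edgeR quasi-likelihood test, Benjamini-Hochberg adjusted p = 0.00183). Of all tested genes, 10.8% had every 4h library below every 0h library.

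Snhg5, host of Snord50a and Snord50b, was at 22.0, 33.1, 40.2 and 37.0 CPM at 0h. The 2h libraries were at 27.4, 27.2, 29.6 and 24.99 CPM, and the 4h libraries at 22.4, 20.4, 31.0 and 21.8. The 0h libraries were the most spread, and clone 4 replicate 1 at 0h lay within the 4h range. Its log2 fold change was -0.33 (SE 0.11, edgeR adjusted p = 0.0287) at 2h and -0.49 (SE 0.11, edgeR adjusted p = 0.00118) at 4h. The 2h call was lost without 0h clone 4 replicate 2 (log2 fold change -0.29), 0h clone 8 replicate 1 (-0.27), 0h clone 8 replicate 2 (-0.32), 2h clone 8 replicate 1 (-0.34) or 2h clone 8 replicate 2 (-0.23). It was also lost in DESeq2 (-0.31), without the clone covariate (-0.30), with no low-count filter (-0.29) and with library size alone (-0.30). The 4h calls of Snhg1 and Snhg5 were kept when each of the 8 libraries of these 2 groups was left out. They were lost with library size alone as the scaling (-0.30 and -0.37).

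Gas5 was at 70.1, 86.2, 85.9 and 96.7 CPM at 0h. Its 2h libraries were at 104, 108, 86.8 and 66.2 CPM, and its 4h libraries at 77.2, 81.1, 68.5 and 58.1. The groups overlapped, and the 2h libraries split by clone. Its log2 fold change was 0.05 at 2h (SE 0.11) and -0.27 at 4h (SE 0.11, edgeR adjusted p = 0.0684), which was not past the threshold. It was past it without 0h clone 4 replicate 1 (log2 fold change -0.37) and with no low-count filter (-0.27).

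The other 5 tested hosts had overlapping groups and no call at 2h or 4h. Snhg8, host of Snora24, had log2 fold changes of -0.38 (95% interval -0.73 to -0.02) at 2h and -0.35 (-0.72 to 0.01) at 4h, with an edgeR adjusted p of 0.136 and 0.142. At 4h the values of Snhg6 (-0.20), Snhg15 (-0.15), Snhg12 (-0.14) and Snhg17 (-0.05) were smaller, and that of Snhg17 was 0.05 with library size alone, a scaling that moved the median of all genes to 0.09. Counted together, 1 of 8 tested hosts was lower and 0 higher at 2h, where 9.68% of all tested genes were lower and 11.4% higher. At 4h, 2 of 8 were lower and 0 higher, where 16.8% of all tested genes were lower and 17.2% higher. The median host log2 fold change was -0.23 at 4h against -0.02 for all tested genes. At an unadjusted p under 0.05, 2 hosts were lower at 2h and 3 at 4h, and 0 were higher in either. DESeq2 called 0 hosts lower at 2h, 2 lower at 4h, and 0 higher.

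Between 2h and 4h, 0 of 8 hosts were called by edgeR and 0 by DESeq2, while 2 were lower at an unadjusted p under 0.05. Of all tested genes, 3.52% were called lower and 3.80% higher. These hosts were Gas5, with a log2 fold change of -0.32 (SE 0.11, edgeR adjusted p = 0.0846), and Snhg1 with -0.27 (SE 0.10, adjusted p = 0.0819). Both passed the threshold without 2h clone 8 replicate 2 (-0.44 and -0.34). With 0h clone 4 replicate 1 or rev clone 8 replicate 1 left out, 1 host was called.

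**Figure D2:**
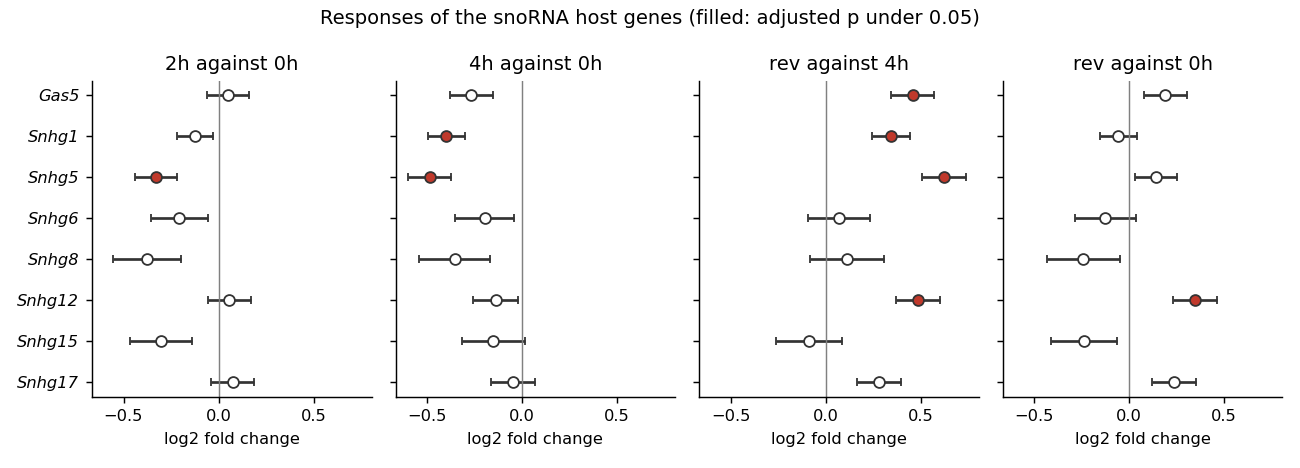
Log2 fold change (horizontal axes) of each tested host gene in 4 comparisons, with bars of 1 standard error derived from the edgeR F statistic. Filled points have an adjusted p under 0.05: Snhg5 at 2h, Snhg1 and Snhg5 at 4h, Gas5, Snhg1, Snhg5 and Snhg12 in rev against 4h, and Snhg12 in rev against 0h.

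The comparison of rev with 4h addressed reversion. It shares the 4h libraries with the comparison above, so low 4h values enter both. On TMM-scaled levels, Gas5, Snhg1, Snhg5 and Snhg12 were higher in rev, by 1.27-fold to 1.54-fold. These were 4 of 8 tested hosts, where 7.93% of all tested genes were higher and 8.43% lower. The median host log2 fold change was 0.31, against 0.01 for all tested genes.

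Snhg5 was at 36.6, 30.6, 41.4 and 37.0 CPM in rev, a log2 fold change of 0.62 from 4h (SE 0.11, edgeR adjusted p = 0.00018). Its lowest rev library, clone 4 replicate 2, lay just under its highest 4h library at 31.0 CPM, and the other 3 lay above it. Against 0h its log2 fold change was 0.14 (95% interval -0.08 to 0.36, edgeR adjusted p = 0.390).

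Snhg12, which contains 4 H/ACA models and the C/D model Snord99, was at 16.02, 16.3, 14.6 and 17.5 CPM at 0h and 19.8, 17.1, 17.2 and 14.3 at 2h. It was at 15.5, 14.4, 13.9 and 15.3 CPM at 4h and 19.3, 19.1, 22.5 and 23.0 in rev. All rev libraries were above all 4h and all 0h libraries, a separation seen in 6.48% and 9.59% of all tested genes. The log2 fold change was 0.49 from 4h (SE 0.12, edgeR adjusted p = 0.00343) and 0.35 from 0h (SE 0.12, adjusted p = 0.0294). Snhg12 was the single host called between rev and 0h, as 1 of 8 higher and 0 lower, where 12.4% of all tested genes were higher and 9.86% lower. That call was lost in DESeq2 (log2 fold change 0.35), with no low-count filter (0.33), with the covariate of the 8 most abundant models (0.31) and with library size alone (0.04, where the median of all genes was -0.32). It was also lost without 0h clone 4 replicate 2 (log2 fold change 0.34), 0h clone 8 replicate 1 (0.30), rev clone 8 replicate 1 (0.28) or rev clone 8 replicate 2 (0.30). No host was lower in rev than at 0h at an unadjusted p under 0.05, or by DESeq2.

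Gas5 was at 104, 94.3, 112 and 77.5 CPM in rev, a log2 fold change of 0.46 from 4h (SE 0.11, edgeR adjusted p = 0.00489). Rev clone 8 replicate 2 overlapped the 4h range, and the other 3 rev libraries lay above it. Snhg1 was at 48.8, 43.4, 56.8 and 36.1 CPM, a log2 fold change of 0.34 (SE 0.10, edgeR adjusted p = 0.0162), with the same library inside the 4h range. Without rev clone 8 replicate 1 the calls of Gas5 (log2 fold change 0.34) and Snhg1 (0.20) were lost, which left 2 hosts. Both were also lost without the clone covariate (0.45 and 0.33). The Snhg1 call was also lost without 4h clone 4 replicate 1 (0.32), 4h clone 8 replicate 1 (0.31) or rev clone 4 replicate 1 (0.34).

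The remaining hosts showed no called difference in rev. Snhg17 was at 23.9, 34.8, 33.0 and 26.3 CPM at 4h and 32.3, 34.3, 42.4 and 35.2 in rev, with overlap and a log2 fold change of 0.28 (edgeR adjusted p = 0.0942). It passed the threshold without 4h clone 4 replicate 2 (0.41). Snhg6 (0.07, 95% interval -0.25 to 0.39), Snhg8 (0.11, -0.27 to 0.49) and Snhg15 (-0.09, -0.43 to 0.26) had intervals that include both directions. These 3 had 7 to 143 counts per library, fewer than Gas5 with 172 to 1027. Snhg12, which was called, had 39 to 204 and so overlapped them.

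The 8 most abundant models took 54.1% ± 9.31 of the counts at 4h and 65.9% ± 10.6 in rev (SD, n = 4), so composition moved with this comparison. When only library size was used for scaling, the median log2 fold change of all genes from 4h to rev became -0.41 and no host was called. The log2 fold changes of Snhg1 (-0.08), Snhg6 (-0.36), Snhg8 (-0.29) and Snhg17 (-0.13) were then negative, yet 7 of 8 hosts lay above that median, as under TMM. Once the percent of counts in these 8 models entered the model beside clone, 3 hosts were called higher and Snhg12 (0.38) was not. Without rev clone 8 replicate 2, the library with the highest share, 4 were called.

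The clones differed in 2 hosts, against 29.1% of all tested genes called in either direction. Over all groups, Snhg5 was at 27.5 CPM in clone 4 and 32.9 in clone 8 (log2 difference, clone 8 minus clone 4, 0.24, SE 0.08, edgeR adjusted p = 0.0208). Snhg8 was at 7.81 CPM in clone 4 and 5.54 in clone 8 (-0.46, SE 0.14, edgeR adjusted p = 0.0103). The number of hosts called was 1 without 4h clone 8 replicate 1 and 4 without rev clone 8 replicate 1.

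For the difference in response between clones, 0 of 8 hosts were called by edgeR or DESeq2. The shares of all tested genes called were 0.0901% for 2h against 0h, 0.311% for 4h against 0h and 0.00819% for rev against 4h. At an unadjusted p under 0.05 there were 2 hosts at 2h, 1 at 4h and 0 in rev. The widest split was that of Gas5: clone 4 averaged 78.1 CPM in the 0h group and 106 in the 2h group, and clone 8 averaged 91.3 and 76.5. The difference between those responses was -0.68 (log2 scale, SE 0.18, edgeR adjusted p = 0.154) and did not pass the correction. Without 2h clone 8 replicate 1, 1 host was called.

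The snoRNAs themselves were nearly absent from the counts. Of the 33 snoRNA models inside the hosts, 32 had 0 counts in all 16 libraries, and each of these 32 shares every base with the exons of another model. Snord87 in Snhg6 is the one that shares no base, and it had 142 counts in all, 2 to 17 per library. It lies outside the annotated exons of Snhg6, so reads of the snoRNA and of unspliced Snhg6 RNA cannot be told apart. It is printed because it is the single snoRNA model of the hosts with counts. Capitals mark the letters TGATGA (core of the C box) and CTGA (D box), the motifs that define a box C/D snoRNA.
Snord87, chr1:9942463-9942549, minus strand: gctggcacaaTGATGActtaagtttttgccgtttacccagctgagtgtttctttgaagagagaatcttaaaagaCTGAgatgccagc

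Snord87 averaged 1.12 ± 0.512 CPM in the 0h group and 1.53 ± 0.520 in the 2h group (SD, n = 4). In the 4h group it averaged 0.962 ± 0.344 CPM, and in rev 1.61 ± 0.734. The log2 fold change from 4h to rev was 0.64 (SE 0.40, edgeR adjusted p = 0.296), and its host Snhg6 stood at 0.07. Neither difference passed the threshold.

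The same pattern held across the annotation. Among all snoRNA models, 27.6% of the 1279 that share no base had a count, against 1.97% of the 152 that share every base on the same strand. Of the 14 wholly covered by a model on the opposite strand, 0 had a count. Over all gene models the shares were 55.7% of 41349, 1.55% of 645 and 0.92% of 435. The way shared bases were counted is not given in the sources used here, and no absence of an RNA is read from these zeros.

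Snhg3, the host of Snora73a and Snora73b, shares part of its bases, a class in which 82.7% of 9997 models had a count. Of its 986 exon bases, 705 are also exon of Gm17300 on the opposite strand, 135 are exon of Rcc1 and 159 belong to Snora73a on the same strand, and 135 are shared with no model. Gm17300 was at 5.13 CPM and Rcc1, which encodes a nucleotide exchange factor for Ran, at 40.7 CPM (means of 16 libraries). Whether any of those reads came from Snhg3 was not tested. The tested hosts kept 79.1% (Snhg1) to 94.7% (Snhg17) of their exon bases unshared.

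**Figure D3:**
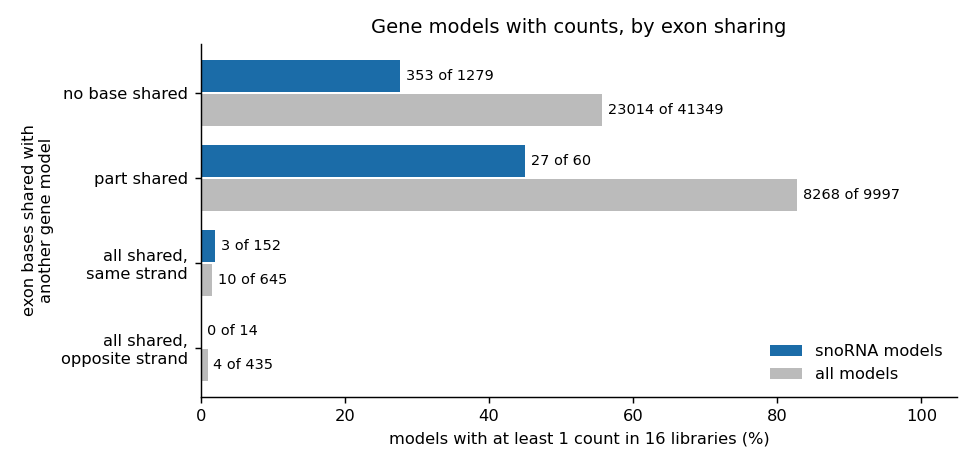
Percent of gene models with at least 1 count in the 16 libraries (horizontal axis), by whether the model's exon bases are shared with another model (vertical axis), for snoRNA models and for all models. Models whose every base is shared had counts in 0% to 1.97% of cases.

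Other genes of the snoRNA pathway were read from lists. Of 12 further non-coding hosts, 9 were in the table and 7 were tested. Of these 7, 2 were lower at 4h (16.8% of all tested genes) and 1 was higher in rev than at 4h (7.93% of all), with median log2 fold changes of -0.34 and 0.30. Zfas1, a host of Snord12-family snoRNAs, averaged 44.5 ± 4.15 CPM in the 0h group, 33.2 ± 1.65 in the 4h group and 45.9 ± 4.77 in rev. Its log2 fold changes were -0.43 (SE 0.10, edgeR adjusted p = 0.00079) and 0.48 (SE 0.10, adjusted p = 0.00074), in the same directions as Snhg1 and Snhg5. With library size alone 1 of the 7 was called lower at 4h and 0 higher in rev. Snhg11 fell from 18.2 ± 3.91 to 9.74 ± 2.25 CPM at 4h (log2 fold change -0.93, SE 0.15, edgeR adjusted p = 1.3e-05). In rev it averaged 11.6 ± 4.25 CPM, which was not called against 4h (0.30, edgeR adjusted p = 0.229). It was lower in rev than at 0h (-0.63, edgeR adjusted p = 0.0032). Between rev and 0h, 2 of the 7 were lower and 1 higher, where 9.86% and 12.4% of all tested genes were.

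The 21 protein-coding hosts, which keep snoRNAs in introns of translation and ribosome genes, had medians of the opposite sign. At 4h 9 were higher and 1 lower (median 0.19), against 17.2% and 16.8% of all tested genes. In rev 10 were lower than at 4h (median -0.24), against 8.43% of all. The heat shock cognate Hspa8 averaged 556 ± 43.3 CPM in the 0h group, 788 ± 111 in the 4h group and 581 ± 33.4 in rev. Tpt1 (log2 fold change from 4h to rev -0.55), a translationally controlled protein, and Rps3 (-0.44), a ribosomal protein, were among those lower in rev. The number higher at 4h was 5 without 0h clone 8 replicate 2 or without 4h clone 8 replicate 1, and 0 with library size alone. The number lower in rev was 8 to 11 with any single library left out.

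Of the 8 core proteins that bind snoRNAs, 6 were higher after 4 h of induction, against 17.2% of all tested genes. At 4h, 3 of 4 box C/D proteins were higher: Snu13 (log2 fold change 0.58), Nop58 (0.50) and Nop56 (0.32). So were 3 of 4 box H/ACA proteins: Gar1 (0.57), Nhp2 (0.53) and Nop10 (0.36). Nop56 and Nop58 are also in the list of protein-coding hosts. Among 10 assembly factors, 3 were higher at 4h, against the same 17.2%: Naf1 (0.90), which loads H/ACA particles, Nolc1 (0.59) and Nufip1 (0.27). In rev, 1 of 4 box C/D proteins (Nop58, -0.30) and 1 of 4 box H/ACA proteins (Nop10, -0.80) were lower than at 4h. So was 1 of 10 assembly factors (Naf1, -0.40), where 8.43% of all tested genes were lower. Against 0h, 2 C/D proteins, 2 H/ACA proteins and 2 assembly factors were higher in rev, where 12.4% of all tested genes were. Naf1 (0.49) and Nolc1 (0.53) were those assembly factors, and Nop10 (-0.45) was lower. With library size alone, 0 C/D proteins, 1 H/ACA protein and 2 assembly factors were called higher at 4h.

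Of 14 nonsense-mediated decay factors, 4 were higher at 4h and 2 lower, where 17.2% and 16.8% of all tested genes were. Smg8 (log2 fold change 0.49), Upf3a (0.24) and Eif4a3 (0.21) were among the higher, and Upf3b (-0.34) and Smg1 (-0.19) lower. Leaving out single libraries gave 2 to 5 higher and 0 to 2 lower, and library size alone gave 0 and 0. The median of this list was 0.11 at 4h and 0.06 in rev against 4h.

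**Figure D4:**
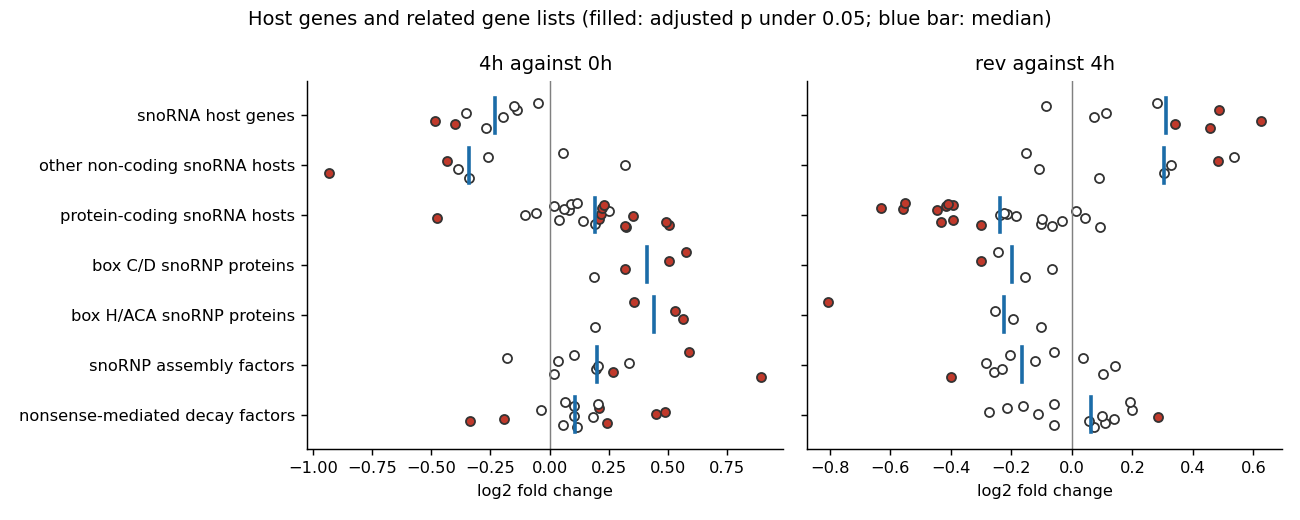
Log2 fold change (horizontal axes) of the tested host genes and of the related lists (vertical axis) for 4h against 0h and rev against 4h, which share the 4h libraries. Each point is 1 gene, filled where the edgeR adjusted p was under 0.05, and blue bars are list medians: -0.23 and 0.31 for the host genes, 0.19 and -0.24 for the protein-coding hosts.

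Across the 16 libraries the hosts moved together to differing degrees. Of 28 pairs, 25 had a positive Pearson r of log2 CPM within clone, with a median of 0.40 and a range of -0.10 to 0.81. Gas5 with Snhg1 was the highest pair. The genes most like the mean host profile, among 8638 with a mean of at least 5 CPM, were Tmem181b-ps (r 0.91, Spearman's rho 0.92), Prpf39 (0.88, 0.84), Dleu2 (0.88, 0.85), Malat1 (0.87, 0.82) and Zfas1 (0.86, 0.81). The points share their library and its scaling. With library size alone, these genes ranked 127, 2, 380, 10 and 15. The host profile was highest in rev clone 8 replicate 1 and lowest in 4h clone 8 replicate 2.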

How the data were processed

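Raw read counts per gene, as deposited by the authors, were used without change; they were whole numbers. STAR 2.5.3a, bcl2fastq 2.19.1 and the build mm10 were named in the submitters' processing notes. The counting tool, annotation and strand setting were not given in the sources used here. RNA was depleted of ribosomal RNA, per the labels' protocols. GENCODE M21 gave symbols and positions for 52489 of 52636 identifiers.

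In edgeR 4.0.16 (R 4.3.3, limma 3.58.1), filterByExpr over the 4 groups left 12215 genes, scaled by TMM. The quasi-likelihood fit used all 16 libraries with terms for group and clone, and two-sided contrasts were adjusted over all tested genes at 0.05. A model with 8 cells of group and clone gave differences in response. The labels name 2 clones and numbered cultures; p-values measure the spread between these samples, which may be partly technical. None of the 8 replicate pairs within a group and clone agreed within sampling noise. The code was tested on simulated data.

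The members and lists were chosen with earlier results of these data known. Of list genes, at most 4 with the largest called changes were named, and some list genes are not reported here. For likeness, the 5 genes with the highest r to the mean host profile (log2 CPM, prior count 2) were named. Alternatives were RLE factors, library size alone, removal of the 8 most abundant models, no filter, a mean of at least 1 CPM, no clone covariate, a replicate block, only the 2 groups compared, DESeq2 1.42.0, and leaving out each library. The percent of counts in the 8 models, as a covariate, was added after seeing the data. Depth ranged from 2172651 to 12680303 counts, and floors of 3 counts cover counting error only.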

Additional observations from a re-analysis of the deposited data

Results flagged for a closer look

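In the rev group, Snhg8 was at 3.16 CPM in clone 8 replicate 2, while the other 3 libraries were at 7.25 to 7.60 CPM. The low library stood apart from the rest by most of the group's range (0.921 of it, where 0.829 is the 95% critical value for 4 samples). It held 7 counts of Snhg8, the lowest of any library for this gene. That library also had the highest share of counts in the 8 most abundant models, 80.4%; the part of this share in the low value was not tested. Chance gives such a gap in about 1 of 20 groups, and 32 groups (8 genes in 4 groups) were examined.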

How the results depend on the processing

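Of the 8 calls, the rise of Snhg5 from 4h to rev and the 4h falls of Snhg1 and Snhg5 were kept in 17 of 18 alternatives, the rise of Snhg12 in 16, of Gas5 in 15 and of Snhg1 in 12, the rise of Snhg12 over 0h in 10 and the 2h fall of Snhg5 in 9. Hosts lower at 2h numbered 0 with library size alone, no low-count filter, no clone covariate or DESeq2, and 0 to 1 with single libraries left out. Hosts lower at 4h than 0h numbered 0 with library size alone. From 2h to 4h, 1 was lower with no filter and 2 with only the 2 groups compared (0 to 2 with a library left out). In rev against 4h, 0 were higher with library size alone and 2 without the clone covariate (2 to 5 with a library left out). In rev against 0h, 0 were higher with library size alone, no filter, DESeq2 or the covariate of the 8 models (0 to 1 with a library left out). A difference in response between clones was called for 1 host with no filter (0 to 1 with a library left out), and the clones differed in 1 to 4 hosts. With library size alone, log2 fold changes turned sign for Snhg17 at 4h (0.049), for Snhg1 (-0.076), Snhg6 (-0.36), Snhg8 (-0.29) and Snhg17 (-0.13) in rev against 4h, and for Gas5 (-0.13), Snhg5 (-0.17) and Snhg17 (-0.081) in rev against 0h. Relative to the median of all genes under that scaling (0.09, -0.41 and -0.32 in these comparisons), each of these 8 values had the same sign as under TMM. That scaling called 57 genes higher and 1671 lower in rev against 4h, where TMM called 969 and 1030. With the covariate of the 8 models the sign turned for Snhg17 at 4h (0.035), Snhg6 from 2h to 4h (-0.026) and Snhg15 in rev against 4h (0.028). From 2h to 4h it also turned for Snhg6 and Snhg8 with no filter (-0.022 and -0.0062) or only the 2 groups compared (-0.027 and -0.026). None of these values was called. The lists' higher calls at 4h numbered 9, 3, 3 and 4 for protein-coding hosts, C/D proteins, H/ACA proteins and decay factors under TMM, and 0, 0, 1 and 0 with library size alone. Leaving out single libraries turned the sign of uncalled changes: at 2h Gas5 (-0.050 to 0.18), Snhg12 (-0.044 to 0.17) and Snhg17 (-0.016 to 0.15), at 4h Snhg17 (-0.17 to 0.060), from 2h to 4h Snhg6 (-0.080 to 0.16) and Snhg8 (-0.18 to 0.15), and in rev against 4h Snhg6 (-0.033 to 0.15), Snhg8 (-0.048 to 0.18) and Snhg15 (-0.26 to 0.053). The causes were not tested. With a replicate block the host counts did not change (4 higher in rev against 4h); same-numbered residuals correlated with a mean r of 0.0047 (-0.22 to 0.13, 12 pairs), and 8 of 16 libraries correlated best with their own number. Snhg8 had the fewest counts of the tested hosts, 7 to 74 per library.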
